A study of Rattus norvegicus with 16 samples.

Results

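Genes of haemoglobin and of the red cell were followed through adrenal gland, heart and pancreas of the rat as a measure of how much blood each piece of tissue held: Hba-a1, Hba-a2, Hbb, Alas2 and Slc4a1. They were taken by gene symbol, 5 of 45777 rows in each organ's table, and each symbol occurred in 1 row only. All animals were wildtype male Sprague-Dawley rats that received liquid into the trachea, either the vehicle alone or the disinfectant benzalkonium chloride (BKC) at 50 µg (BKC50) or 100 µg (BKC100) per rat. Instillation began at 7 weeks of age and was repeated every 3 days, 10 times in all. The animals were killed on day 31, with 24 h between the final instillation and collection. Adrenal gland and heart had 3 groups and pancreas had vehicle and BKC100 only, with 2 libraries in each group. The 2 adrenals of each animal were pooled, and hearts are described as cut from the left ventricular area. RNA was sequenced from poly(A)-selected stranded libraries made with total RNA.

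Mature red cells of mammals have no nucleus, and the RNA they carry is a remnant that is richest in reticulocytes, the youngest cells in the blood. Haemoglobin is a tetramer of alpha and beta globin chains, each holding a haem. Most of a red cell's RNA encodes these chains, which is why globin transcripts in a bulk organ are commonly read as blood left in its vessels. Alas2 makes the first intermediate of haem in erythroid cells, while Alas1 does so in other cells. Slc4a1, also called band 3, exchanges chloride for bicarbonate across the red cell membrane. In bulk RNA, fewer red cells and less RNA per red cell cannot be told apart.

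Several limits of the libraries come before the results. The heart column named for BKC100 replicate 2 held the same value as adrenal BKC100 replicate 2 in all 45777 rows and was left out, so 15 libraries were used and heart BKC100 was 1 library with no replicate check. Values were in FPKM and read counts could not be recovered, so the depth of each library is unknown. Library names came in a first and a second style. Both adrenal BKC100 libraries had the second style and the other 4 adrenals had the first, so dose and naming style cannot be told apart there. The noncoding RNA Rn7sl1 took 27.0% to 35.9% of all FPKM in the first-style adrenals and 9.505% to 10.3% in the second-style ones. Rpph1, another noncoding RNA, took 8.69% to 26.0% in the first-style adrenals and 3.75% to 3.82% in the second-style ones. Some organ markers were near 0 outside their organ: Star, which carries cholesterol into mitochondria for steroid synthesis, was at 2353 to 8811 FPKM in adrenal gland and at most 0.543 FPKM elsewhere, and Prss1, a trypsinogen, was at 12998 to 20734 FPKM in pancreas and at most 0.435 FPKM elsewhere. Ins2, an insulin gene, was not so confined: it was at 23.5 to 181 FPKM in pancreas, 14.1 to 25.6 in adrenal gland and 10.3 to 15.3 in heart. The heart BKC100 library went against its label. In it the ventricular light chain Myl2 was at 41.9 FPKM, against group means of 12939 FPKM in vehicle and 14950 FPKM in BKC50. Its atrial light chain Myl7 was at 7906 FPKM against means of 3.70 and 2.11 FPKM, so the markers of this library are those of atrium. Library names within a group carry different numbers, and BKC100 replicate 1 has the same name and number in every organ. No label says that these numbers stand for animals, or that replicates of a group came from different animals. The p-values measure the spread between these libraries.

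Promoter sequence is shown for the 4 members that had an entry in RefSeq's table for build GRCr8, to display how alike the start regions of the globin genes are. Each run is the 250 bases before the annotated start, written 5′ to 3′ on the gene's strand. Capitals mark 5 short motifs searched on both strands. The GATA box, bound by the erythroid regulator GATA1, was searched as GATAA. The KLF box, bound by the erythroid regulator KLF1, was searched as CACCC. The NF-Y box was searched as CCAAT, and a match on the other strand stands in the runs as its reverse complement. The TATA box was searched as TATAAA, with its variant CATAAA. The NF-E2 motif TGAGTCA was searched too and had no match in these windows. The NF-Y box and the TATA variant were added after the sequences had been seen.
Hba-a1 (chr10:15842581-15842830, minus strand): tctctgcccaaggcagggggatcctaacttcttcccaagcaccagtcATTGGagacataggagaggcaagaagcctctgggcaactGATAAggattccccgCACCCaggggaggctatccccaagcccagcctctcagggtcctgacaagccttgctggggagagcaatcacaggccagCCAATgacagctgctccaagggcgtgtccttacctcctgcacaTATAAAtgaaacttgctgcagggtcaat
Hba-a2 (chr10:15829139-15829388, minus strand): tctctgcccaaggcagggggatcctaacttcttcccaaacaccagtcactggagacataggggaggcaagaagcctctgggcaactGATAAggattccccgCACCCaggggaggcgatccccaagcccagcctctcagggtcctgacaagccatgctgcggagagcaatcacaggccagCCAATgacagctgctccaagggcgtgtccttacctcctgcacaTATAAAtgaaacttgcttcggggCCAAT
Hbb (chr1:167663722-167663971, minus strand): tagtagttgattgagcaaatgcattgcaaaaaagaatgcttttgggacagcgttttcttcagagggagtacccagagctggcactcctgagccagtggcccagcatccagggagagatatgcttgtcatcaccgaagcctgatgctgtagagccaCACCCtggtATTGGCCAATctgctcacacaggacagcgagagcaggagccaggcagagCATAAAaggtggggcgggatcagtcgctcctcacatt
Alas2 (chrX:22895200-22895449, plus strand): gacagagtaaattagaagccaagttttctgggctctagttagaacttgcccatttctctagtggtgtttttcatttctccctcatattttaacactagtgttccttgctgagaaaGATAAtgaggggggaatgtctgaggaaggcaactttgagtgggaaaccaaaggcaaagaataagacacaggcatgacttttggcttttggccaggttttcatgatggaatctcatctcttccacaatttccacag

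The promoters of Hba-a1 and Hba-a2 differed at 9 of 250 positions, an identity of 96.4%. Both held a GATA box at 164 and a KLF box at 149 bases before the start, an NF-Y box at 71 and a TATA box at 28, each counted to the first base of the match. Hbb, on another chromosome, held a KLF box at 95 bases before the start, NF-Y boxes on opposite strands side by side at 86 and 81, and the TATA variant at 37. Alas2 held a GATA box once, 135 bases before its start, and no other of these motifs. Such short words are frequent: of 33465 promoters in the table, 23.5% held the GATA box, 49.2% the KLF box, 34.0% the NF-Y box, 12.9% the TATA box, 11.4% its variant and 4.05% the NF-E2 motif. No match overlaps another in the runs shown, and the matches are letters only, not sites shown to be used. Among the other adult globin genes, the promoters of Hbb-b2 and Hbbl1 were identical at all 248 aligned bases, and Hbb-b1 and Hbb-b2 had an identity of 98.0%. Hbb was less like its neighbours, with 74.2% against Hbb-b1, where the alpha gene Hba-a1 against Hbb gave 70.9%. These identities are over aligned bases and leave out gaps. In the annotation's order, Hba-a1 and Hba-a2 stand on either side of Hbq1b, a theta globin gene, and Hbb lies beside Hbb-b2.

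**Figure D1:**
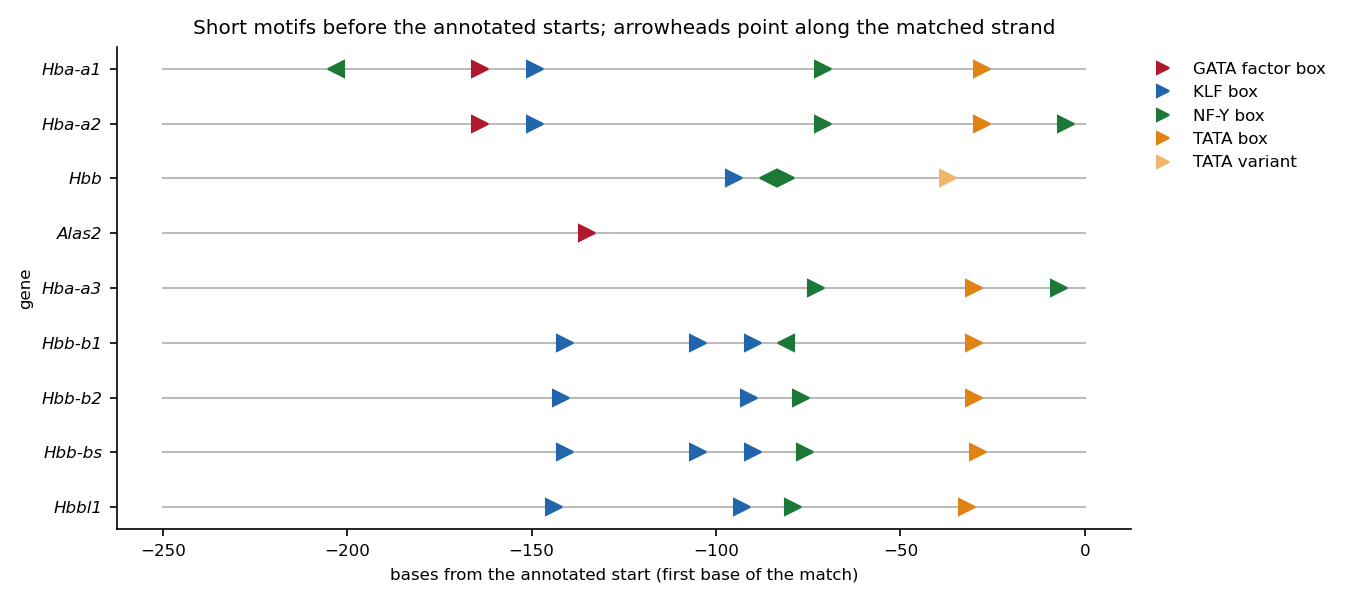
Positions of the motifs (first base of each match, in bases from the annotated start, x axis) in 9 globin and haem genes (rows); colour gives the motif and the arrowhead the matched strand. Hba-a1 and Hba-a2 share 4 positions, at -164, -149, -71 and -28.

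The alpha chain genes were highest in heart. Hba-a1 was at 694 and 776 FPKM in the vehicle hearts, 120 and 114 FPKM in the vehicle adrenals and 96.2 and 8.70 FPKM in the vehicle pancreases. Hba-a2 followed the same order, with 540 and 532, then 94.4 and 93.1, then 55.2 and 4.81 FPKM. The vehicle hearts averaged 6.27 times the vehicle adrenals for Hba-a1 and 5.72 times for Hba-a2. The 3 tables were made separately, so these are levels set side by side, with no test.

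Hbb, the major adult beta chain in these libraries, was at 1341 and 904 FPKM in the vehicle hearts, 386 and 245 FPKM in the vehicle adrenals and 108 and 6.55 FPKM in the vehicle pancreases. For all 3 chains, both vehicle hearts lay above both vehicle adrenals and these above both vehicle pancreases. Alas2 had the same order at far lower FPKM: 9.88 and 9.32 in vehicle heart, 2.17 and 1.67 in vehicle adrenal, 1.14 and 0.0610 in vehicle pancreas. Slc4a1 was at 2.48 and 3.46 FPKM in vehicle heart. It was at 0.138 FPKM and listed at 0 in vehicle adrenal, and at 0.0662 FPKM and listed at 0 in vehicle pancreas.

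**Figure D2:**
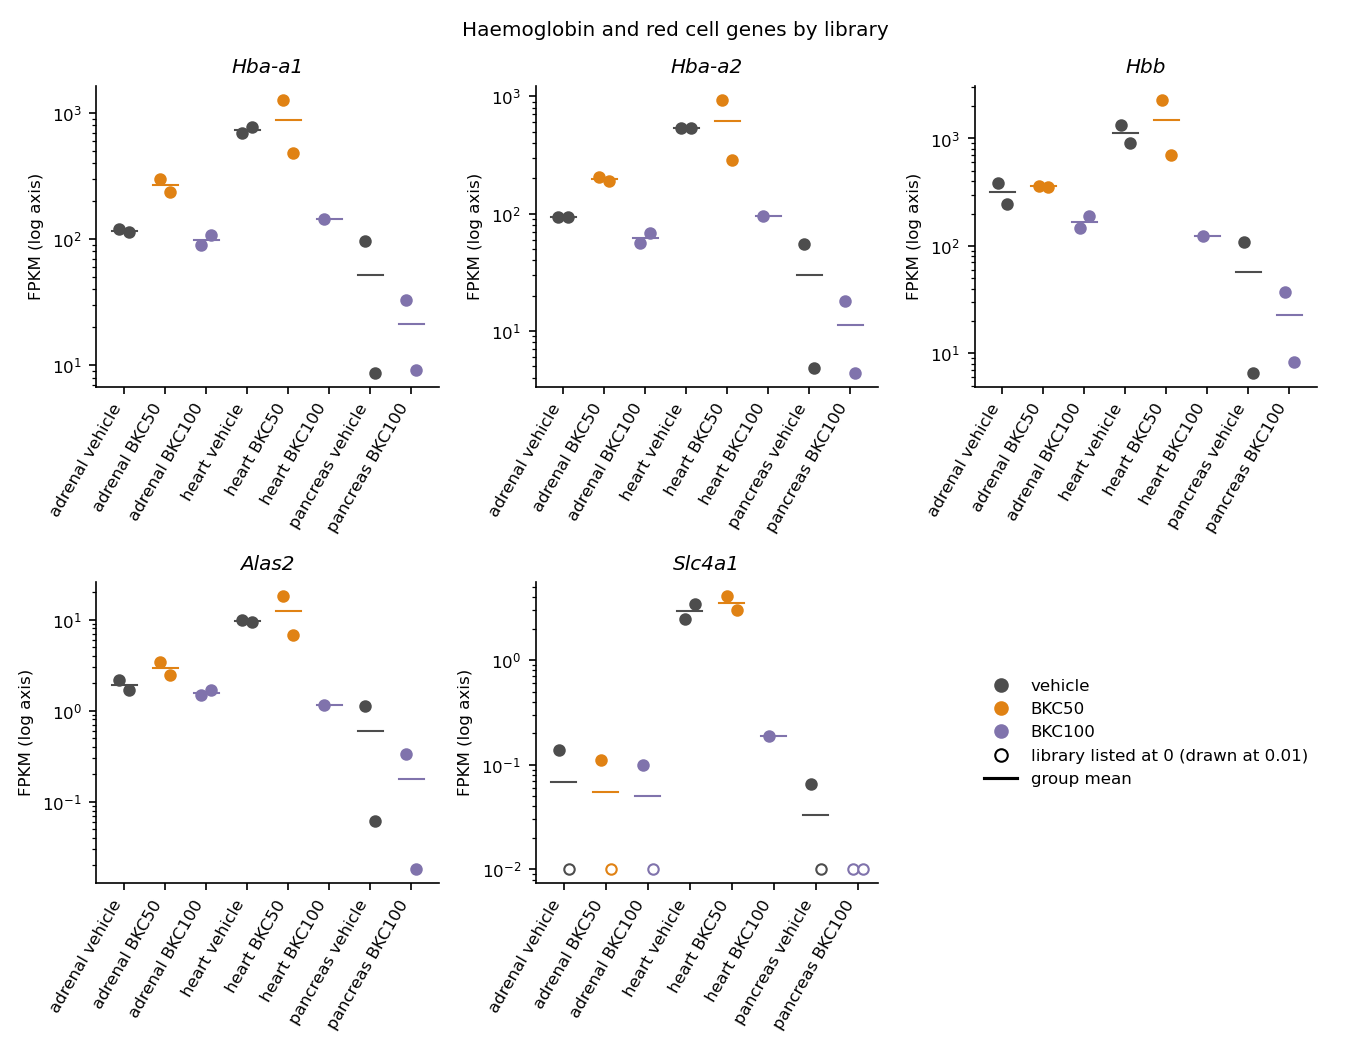
FPKM of the 5 members in each of 15 libraries (points, log axis) by organ and treatment (x axis), with the group mean as a line and libraries listed at 0 as open points. Heart vehicle and BKC50 lie highest for every member, and the 2 libraries of each pancreas group lie far apart.

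In the adrenal gland, the alpha chains were higher at 50 µg than in vehicle without passing the test, and all 3 globin members fell between 50 and 100 µg. Hba-a1 was at 120 and 114 FPKM in vehicle, 299 and 239 in BKC50, and 90.2 and 108 in BKC100. Hba-a2 was at 94.4 and 93.1, then 205 and 188, then 56.7 and 68.1 FPKM. For both, every BKC50 library was above every other adrenal library and every BKC100 library was below vehicle. Hbb was at 386 and 245 FPKM in vehicle, 360 and 356 in BKC50, and 147 and 188 in BKC100, so BKC50 lay within the vehicle range and BKC100 below it. Alas2 was at 2.17 and 1.67, then 3.43 and 2.46, then 1.48 and 1.67 FPKM, with BKC50 highest and vehicle and BKC100 almost touching. Slc4a1 was at 0.138, 0.111 and 0.1001 FPKM in replicate 1 of vehicle, BKC50 and BKC100 and listed at 0 in each replicate 2. It was too low to test in adrenal gland.

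Between BKC50 and vehicle, none of the 4 members tested was called at an adjusted p under 0.05 (limma, Benjamini-Hochberg over 12578 genes), where 0.0318% of all genes were called. At an unadjusted p under 0.05 there were 2 of the 4, Hba-a1 and Hba-a2, beside 11.3% of all genes. Hba-a1 had a log2 change of 1.18 (SE 0.20, limma adjusted p = 0.0609) and stood at rank 10 of all genes by p. Hba-a2 had a log2 change of 1.06 (SE 0.19, limma adjusted p = 0.0790). Hbb had 0.22 (SE 0.23, limma adjusted p = 0.766) and Alas2 0.43 (SE 0.29, limma adjusted p = 0.609). The groups did not overlap for Hba-a1, Hba-a2 and Alas2, all higher in BKC50, beside 16.5% of all genes. The median log2 change of the 4 was 0.74, against -0.10 over all genes. Fits without one of 4 libraries called Hba-a1, namely vehicle replicate 2, BKC50 replicate 2, BKC100 replicate 1 or BKC100 replicate 2, and the last pair also called Hba-a2. Over the alternatives tried the limma adjusted p of Hba-a1 ran from 0.00954 to 0.543, while its log2 change stayed between 1.02 and 1.35. With the 3 alpha genes summed before the fit, to set aside how reads were shared among them, the log2 change was 1.12 (SE 0.19, limma adjusted p = 0.0613).

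Between BKC100 and BKC50, 3 of the 4 members tested fell, where 2.34% of all genes fell. Hba-a2 had a log2 change of -1.65 (SE 0.19, limma adjusted p = 0.00197), at rank 8 of 12578 genes. Hba-a1 had -1.43 (SE 0.20, limma adjusted p = 0.00490) and Hbb -1.10 (SE 0.23, limma adjusted p = 0.0294). These are falls to 0.317, 0.369 and 0.468 of the BKC50 mean. Alas2 had a log2 change of -0.60 (SE 0.29, limma adjusted p = 0.283), with both BKC100 libraries below both BKC50 libraries; all 4 members were without overlap and lower, beside 34.9% of all genes. The median of the 4 was -1.26, against -0.16 over all genes. With protein-coding genes set to equal sums, Hba-a1 and Hba-a2 were still called and Hbb was not, at a log2 change of -0.84; with median-ratio scaling, 1 member was called. The call of Hbb was also lost without BKC50 replicate 1, BKC50 replicate 2 or BKC100 replicate 1, and with the replicate number as a block (limma adjusted p = 0.0911), where Hba-a1 and Hba-a2 were still called. Without a filter on low genes none of the 3 was called.

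Between BKC100 and vehicle, only Hbb of the 4 members tested fell, where 7.98% of all genes fell and the median gene had a log2 change of -0.28. Its log2 change was -0.88 (SE 0.23, limma adjusted p = 0.0349). Hba-a2 had -0.58 (SE 0.19, limma adjusted p = 0.0694), Hba-a1 -0.24 (SE 0.20, limma adjusted p = 0.433) and Alas2 -0.18 (SE 0.29, limma adjusted p = 0.715). All 4 were lower in BKC100 with no overlap, beside 47.5% of all genes. The log2 change of Hba-a1 was 0.082 under median-ratio scaling and 0.046 with coding genes at equal sums, and that of Alas2 0.032 and 0.0097, so neither has a settled direction. Hbb had -0.56 and -0.59 under these scalings and was called in neither, nor without vehicle replicate 1 or BKC100 replicate 1, without a filter or with the replicate block (limma adjusted p = 0.0778). The pair of comparisons with vehicle share the vehicle libraries, so their values are not independent.

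**Figure D3:**
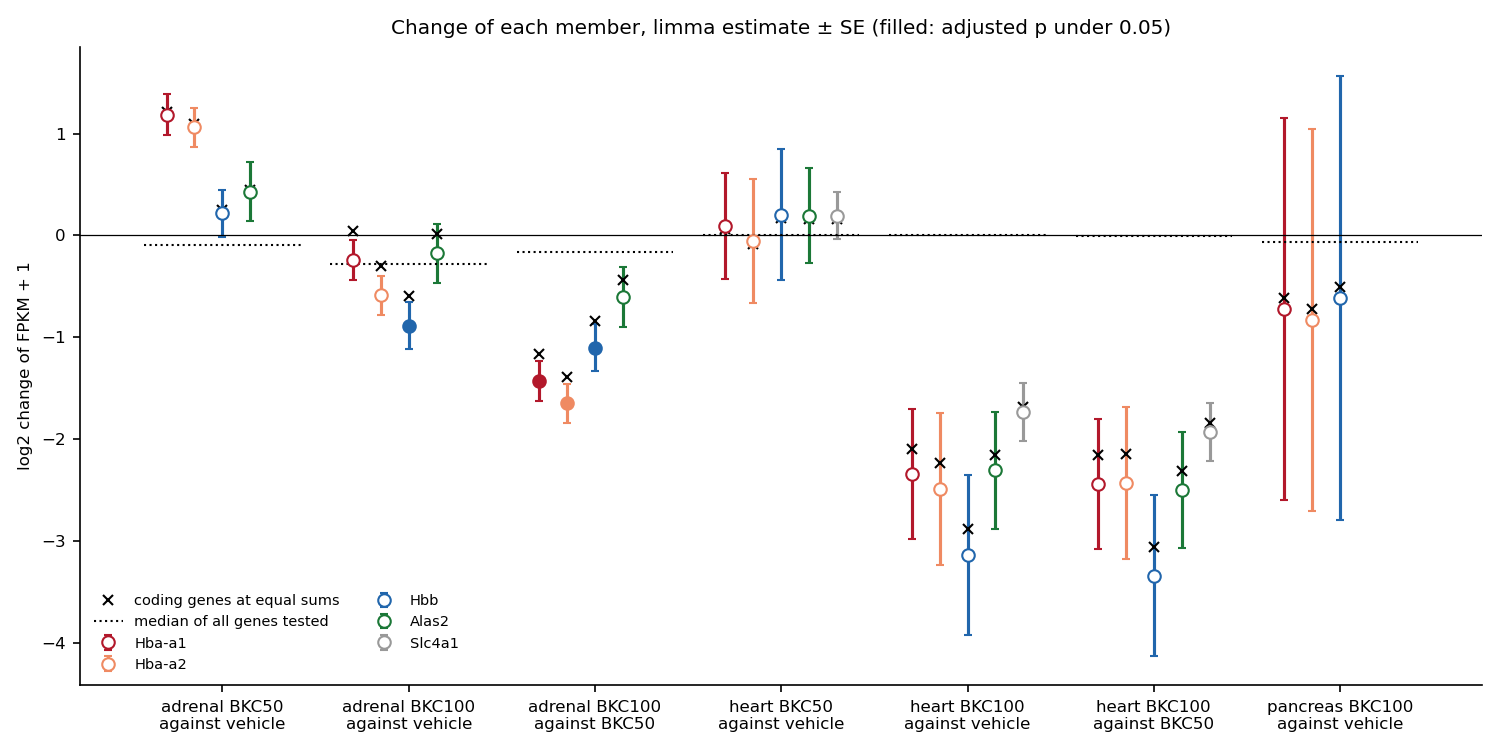
Log2 change of FPKM + 1 (y axis, limma estimate ± SE) of each member in the 7 comparisons (x axis); filled points have an adjusted p under 0.05, crosses give the change with coding genes at equal sums, dotted lines the median of all genes tested. Filled points occur only in the adrenal gland, for Hbb against vehicle and for Hba-a1, Hba-a2 and Hbb between the doses.

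The group means of the remaining adult beta genes in adrenal gland were highest in BKC50 and lowest in BKC100. Hbb-b1 fell between BKC50 and BKC100 (log2 change -1.58, SE 0.25, limma adjusted p = 0.0107), as did Hbb-b2 (log2 change -1.48, SE 0.27, limma adjusted p = 0.0205) and Hbb-bs (log2 change -1.38, SE 0.24, limma adjusted p = 0.0173). Hbb-b1 and Hbb-b2 also fell against vehicle, with log2 changes of -1.13 and -1.08 (limma adjusted p = 0.0213 and 0.0335). Of 14 other globins listed, 12 were in the table and 5 could be tested in adrenal gland: between the doses 3 fell, beside 2.34% of all genes, and 2 fell at 100 µg against vehicle, beside 7.98%. At 50 µg against vehicle none was called, beside 0.0318% of all genes. The embryonic genes Hbe2, Hbg1 and Hbz were listed at 0 in all 15 libraries. With the 5 beta genes summed, the log2 change was -1.26 between the doses and -0.96 at 100 µg against vehicle (limma adjusted p = 0.0180 and 0.0231).

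Relative to alpha, beta globin was lowest in BKC50 and highest in vehicle among the adrenals. The ratio of Hbb to Hba-a1 plus Hba-a2, which does not depend on how a library is scaled, was 1.80 and 1.18 in vehicle, 0.713 and 0.834 in BKC50, and 1.00 and 1.07 in BKC100. The 3 groups did not overlap. The ratio of the 5 beta genes to the 3 alpha genes had the same order, 2.68 and 1.79, then 1.202 and 1.28, then 1.51 and 1.37. Vehicle replicate 1 had the highest ratio of all 15 libraries on both measures, and vehicle replicate 2 the next highest. The medians over the 15 libraries were 0.834 and 1.28, the values of BKC50 replicate 2. The BKC50 ratios were thus low only beside the other adrenals. With 2 libraries a group an exact permutation test cannot go below p = 0.333, two-sided, and none was made. Hbb made up 54.6% to 69.5% of beta FPKM in adrenal gland, highest in BKC100 replicate 2.

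The total of the 8 adult globin genes was 870 and 626 FPKM in vehicle, 1206 and 1052 in BKC50, and 413 and 469 in BKC100 adrenals. As a share of all FPKM it was 0.0908% to 0.148% over the 6 adrenals, and the groups overlapped. As a share of protein-coding FPKM it was 0.219% and 0.162% in vehicle, 0.331% and 0.260% in BKC50, and 0.128% and 0.147% in BKC100, and the groups did not overlap. The total FPKM of adrenal libraries ran from 391123 to 1004889.

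In the heart, the 2 BKC50 libraries differed more from each other than the vehicle and BKC50 means did. Hba-a1 was at 694 and 776 FPKM in vehicle and at 1280 and 480 in BKC50. Hba-a2 was at 540 and 532 against 934 and 284, and Hbb at 1341 and 904 against 2300 and 698 FPKM. BKC50 replicate 1 was the highest and replicate 2 the lowest of these 4 hearts for all 3 chains. Alas2 was at 9.88 and 9.32 FPKM in vehicle and 18.1 and 6.69 in BKC50, and Slc4a1 at 2.48 and 3.46 against 4.08 and 3.00. All 5 members overlapped, with log2 changes from -0.06 to 0.20. None was called by limma, none had an unadjusted p under 0.05, where 0% of 12099 genes were called and 0.372% had an unadjusted p under 0.05. In these 4 hearts replicate 1 of each group had the first naming style and replicate 2 the second; the BKC100 heart had the second.

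The single BKC100 heart library had the lowest value of every member among the 5 hearts. Hba-a1 was at 144, Hba-a2 at 94.8, Hbb at 124, Alas2 at 1.14 and Slc4a1 at 0.187 FPKM. Log2 changes against vehicle were -2.34 for Hba-a1 (SE 0.64), -2.49 for Hba-a2 (SE 0.75), -3.14 for Hbb (SE 0.79), -2.30 for Alas2 (SE 0.57) and -1.73 for Slc4a1 (SE 0.28). None of the 5 was called, where 0.298% of all genes were called lower. The limma adjusted p ran from 0.0971 for Slc4a1 to 0.222 for Hba-a2, and all 5 had an unadjusted p under 0.05, beside 17.3% of all genes. All 5 lay below both vehicle libraries, beside 37.3% of all genes. The fit assumes that the lone library varies as the other groups do. Leaving out BKC50 replicate 1 or BKC50 replicate 2 called 4 members, all but Slc4a1, and leaving out vehicle replicate 1 called Slc4a1. With the replicate number as a block, Hbb, Alas2 and Slc4a1 were called (limma adjusted p = 0.0278, 0.0463 and 0.0121), and with naming style as a term Slc4a1 was (limma adjusted p = 0.0178); no label says that the numbers pair samples. Against BKC50 the log2 changes were -1.93 to -3.34, with 0 of 5 called and 0.322% of all genes called lower.

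The atrial markers move with this library. The summed FPKM of 10 atrial markers was 33628 in it and 91.7 to 310 in the other 4 hearts, and no marker was listed at 0 in it. The sum of 10 genes listed as ventricular markers was 14295 against 32945 to 49455. Of these, Myh6 was at 3109 FPKM against 3232 to 5056, and Tnnt2 at 2113 against 4300 to 5316. Myl2 was at 41.9 FPKM against 11675 to 18061, and Myl3 at 12.3 against 2232 to 4327. The genes of this list thus did not fall alike: Myl2 and Myl3 fell far more than Myh6 and Tnnt2. Whether each gene of the list is confined to ventricle was not tested. The sum of 12 endothelial markers was 388 FPKM in it and 250 to 282 in the others, but gene by gene 6 of the 12 had a positive and 6 a negative log2 change against vehicle, with a median of 0.044 and none called. Mb, the oxygen-storing myoglobin of heart muscle, was at 3577 FPKM against 8746 to 14678 and was not called (log2 change -1.66, SE 0.52, limma adjusted p = 0.234). The part of the tissue piece in the low globin values was not tested. With 1 BKC100 library, dose and tissue piece cannot be told apart.

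In the pancreas, the 2 libraries of each group differed more than the groups. Hba-a1 was at 96.2 and 8.70 FPKM in vehicle and at 33.0 and 9.24 in BKC100. Hba-a2 was at 55.2 and 4.81 against 18.2 and 4.40, and Hbb at 108 and 6.55 against 36.9 and 8.30 FPKM. Replicate 1 was the higher library in both groups, 11.1 times replicate 2 for Hba-a1 in vehicle and 3.57 times in BKC100. Alas2 was at 1.14 and 0.0610 FPKM in vehicle and at 0.337 and 0.0181 in BKC100. Slc4a1 was at 0.0662 FPKM in vehicle replicate 1 and listed at 0 in the other 3 pancreases. Of 3 members tested, none was called and none had an unadjusted p under 0.05, where 0.392% of 5610 genes were called and 2.21% had an unadjusted p under 0.05. The log2 changes were -0.72 for Hba-a1, -0.83 for Hba-a2 and -0.61 for Hbb, with SEs of 1.87, 1.87 and 2.18. Without vehicle replicate 1 they were 0.94, 0.81 and 1.31.

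Alas2 kept a similar proportion to globin in 14 of the 15 libraries. The total of the 8 adult globin genes ran from 26.7 to 6638 FPKM over the 15 libraries, a 248-fold range. Alas2 per 1000 FPKM of globin lay between 2.25 and 3.59 in 14 of them. The exception was pancreas BKC100 replicate 2, at 0.641, where Alas2 itself was at 0.0181 FPKM. In adrenal gland the proportion was 2.49 and 2.67 in vehicle, 2.85 and 2.33 in BKC50, and 3.59 and 3.57 in BKC100, so BKC100 lay above the other 4.

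Slc4a1 did not keep such a proportion. Per 1000 FPKM of globin it was at 0.698 and 1.16 in vehicle heart, 0.614 and 1.48 in BKC50 heart and 0.367 in the BKC100 heart. In adrenal gland and pancreas it was at 0 to 0.242, below every heart. Of the erythroid membrane genes, Ank1 links the membrane to its spectrin skeleton, and Sptb encodes a spectrin of that skeleton. Ank1 was at 25.9 to 56.7 FPKM in heart and at most 0.0813 FPKM in adrenal gland. Sptb was at 18.5 to 30.2 FPKM in heart and at most 0.311 FPKM in adrenal gland. Muscle also expresses both. Whether Slc4a1 in heart comes from red cells or from heart tissue was not tested.

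Hba-a2 relative to Hba-a1 differed with the naming style, which outside heart cannot be told apart from organ or dose. The ratio was 0.687 to 0.815 in the 6 first-style libraries and 0.476 to 0.686 in the 9 second-style ones, which almost touch. Every pancreas had the second style, at 0.476 to 0.574, and in adrenal gland that style was BKC100 only. Within heart the ratio was 0.730 and 0.778 against 0.591 to 0.686, with vehicle and BKC50 in both styles. The atrial BKC100 heart was among the second-style ones. The third alpha gene, Hba-a3, went the other way in heart, at 0.133 and 0.142 of Hba-a1 in the first style and 0.192 to 0.238 in the second. The alpha genes are paralogs, how reads were shared among them is not given in the sources used here, and its part in these ratios was not tested.

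**Figure D4:**
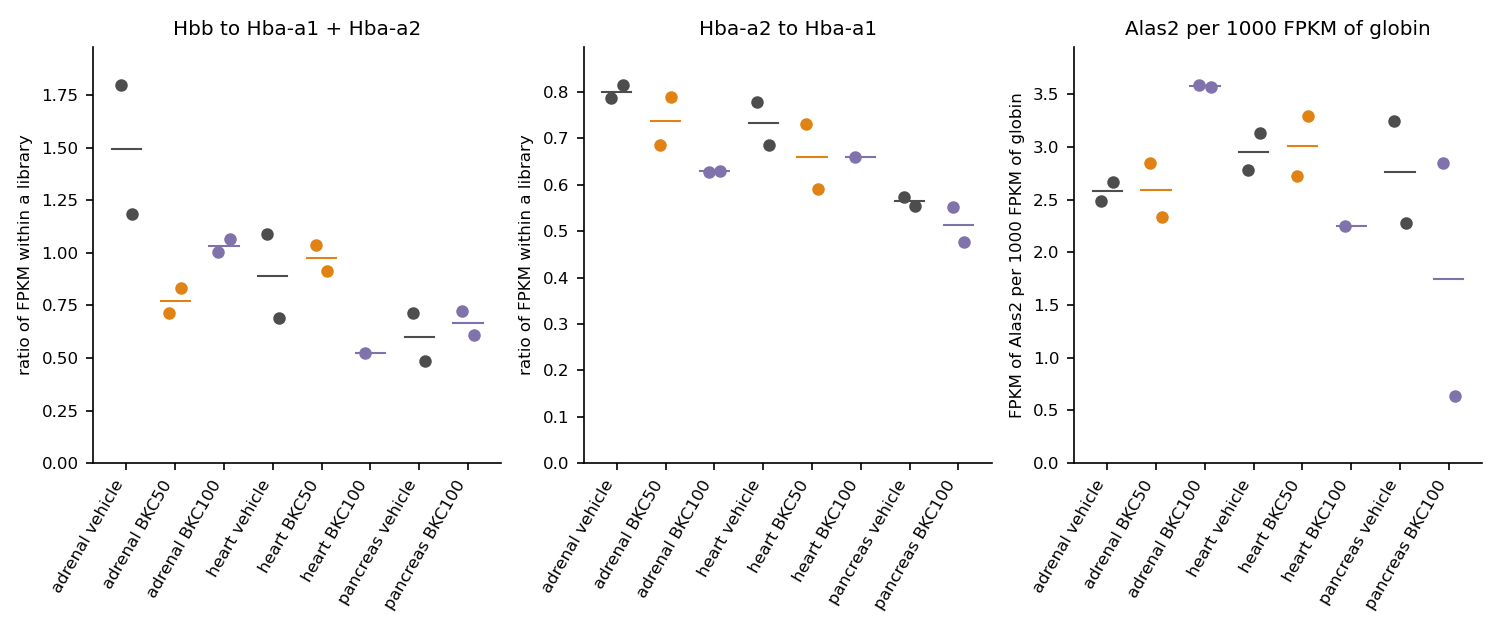
Ratios of FPKM within each of 15 libraries (points; lines are group means) by organ and treatment (x axis): Hbb to Hba-a1 plus Hba-a2, Hba-a2 to Hba-a1, and Alas2 per 1000 FPKM of the 8 globin genes. Adrenal BKC50 lies lowest of the adrenal groups in the first panel, and 14 libraries lie between 2.25 and 3.59 in the third.

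Several other genes of the red cell lineage were low in every library. The regulator Gata1 reached at most 0.0990 FPKM and Klf1 0.393 FPKM in any library. Rhag, an ammonia channel of the red cell membrane, reached 0.0815 FPKM. Ahsp, which holds free alpha globin in solution, reached 2.69 FPKM, in heart BKC50 replicate 1, the library with the most globin. Of 17 membrane and skeleton genes in the table, 4 could be tested in adrenal gland, and none was called in any adrenal comparison. Of 11 erythroid regulators, 2 could be tested there and none was called. Of 20 genes of reticulocytes and late red cells, 16 could be tested there and none was called.

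Haem synthesis and haemoglobin clearance are active in tissue as well as in blood. At 100 µg against vehicle in the adrenal gland, 2 genes of each list fell, beside 7.98% of all genes, and nothing about the lists is read from these counts. Of 15 haem synthesis genes, Ppox and Slc25a38 fell against vehicle, with log2 changes of -1.06 and -1.10 (limma adjusted p = 0.0247 and 0.0328), 13 did not pass, and the list's median was -0.43 beside -0.28 over all genes. Ppox oxidises protoporphyrinogen, and Slc25a38 brings glycine into mitochondria. Of 13 clearance genes, Hmox1 and Ftl1 fell, with log2 changes of -1.85 and -1.08 (limma adjusted p = 0.0131 and 0.0136), and the list's median was -0.35. Hmox1 breaks haem down and Ftl1 is the light chain of ferritin, which stores the iron. Ftl1 also fell between the doses (log2 change -1.65, limma adjusted p = 0.00303), from 337 and 485 FPKM to 123 and 133 FPKM, and it was at 248 and 298 FPKM in vehicle. Alas1, the form of the enzyme outside the red lineage, was at 49.5 and 114 FPKM in vehicle, 389 and 373 in BKC50 and 566 and 68.0 in BKC100 and was not called.

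Markers of other blood cells were low. In adrenal gland the summed FPKM of 14 platelet genes was 9.22 to 17.8, that of 15 neutrophil genes 1.44 to 4.77 and that of 16 lymphocyte genes 4.73 to 7.72. The neutrophil sum was 1.44 and 2.03 in vehicle, 3.31 and 4.77 in BKC50, and 1.72 and 1.90 in BKC100, highest where the alpha chains were highest, and their part in that result was not tested. Between 8 and 11 of the 15 neutrophil genes were at 0 in each adrenal, and none was high enough to test. Pf4, a chemokine gene of the platelet list, fell at 100 µg against vehicle (log2 change -1.37, SE 0.35, limma adjusted p = 0.0312), from 4.62 and 5.03 FPKM to 0.565 and 2.22 FPKM. It was at 3.401 and 3.61 FPKM in BKC50. The other 3 platelet genes tested were not called, and 2 of them had positive log2 changes. Between 3 and 6 of the 14 platelet genes were at 0 in each adrenal. Which cells the Pf4 RNA came from was not tested. The platelet sum was highest, at 17.8 FPKM, in BKC100 replicate 1, the library with the lowest Pf4. Endothelial markers summed to 169 and 192 FPKM in vehicle, 159 and 193 in BKC50 and 143 and 148 in BKC100, and none of 11 tested was called in any adrenal comparison. Between BKC100 and BKC50, 8 of 9 macrophage genes tested had a negative log2 change, with a median of -0.52 beside -0.16 over all genes, and none was called. Their list summed to 312 and 364 FPKM in vehicle, 233 and 403 in BKC50 and 219 and 259 in BKC100. Of 10 adipocyte genes, 7 had a positive log2 change between these doses, with a median of 0.84, and none was called. They summed to 667 FPKM in BKC100 replicate 2 and to 124 to 290 in the other 5 adrenals. The part of these cell types in the globin result was not tested.

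The 10 genes whose pattern over libraries was most like that of the members began with 5 other globins. The mean of the 5 members, centred within organ on the log2(FPKM + 1) scale, was correlated with 1906 genes that varied by an SD of at least 0.3 over the 15 libraries. The highest were Hbb-bs (r = 0.99), Hbbl1 and Hbb-b2 (both r = 0.97), Hbb-b1 (r = 0.96) and Hba-a3 (r = 0.94). After these came Slc25a4 (r = 0.92), which exchanges ADP and ATP across the mitochondrial membrane, Cyc1 (r = 0.91), a subunit of complex III, and Cox5b (r = 0.91), a subunit of complex IV. Tbrg4, which acts on mitochondrial RNA, and Dhps, an enzyme of hypusine synthesis, also had r = 0.91. Over the 6 adrenals alone, Slc25a4 had r = 0.65, Cox5b 0.69 and Cyc1 0.82, while Tbrg4 had 0.98 and Hbb-bs 0.98. The next gene had r = 0.90 and the median gene 0.37. These points share each library's scaling, and the atrial heart library lies at one end, so r is a description only.

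Among the members themselves, Hba-a1 and Hba-a2 had r = 0.99 over the 15 libraries, Hba-a1 and Hbb 0.95, and Hba-a1 and Alas2 0.86. Slc4a1 went less closely with the chains, at 0.60 with Hba-a1, 0.58 with Hba-a2 and 0.66 with Hbb, and at 0.88 with Alas2. In heart, the only organ where Slc4a1 was high enough to test, its r with the other members ran from 0.92 to 0.95. That is over 5 libraries, with the atrial one lowest for every member. In adrenal gland, where Slc4a1 was too low to test, its r with the other members ran from -0.0044 to 0.32. In adrenal gland Hba-a1 went more closely with Alas2 (r = 0.94) than with Hbb (r = 0.72), a description over 6 libraries.

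**Figure D5:**
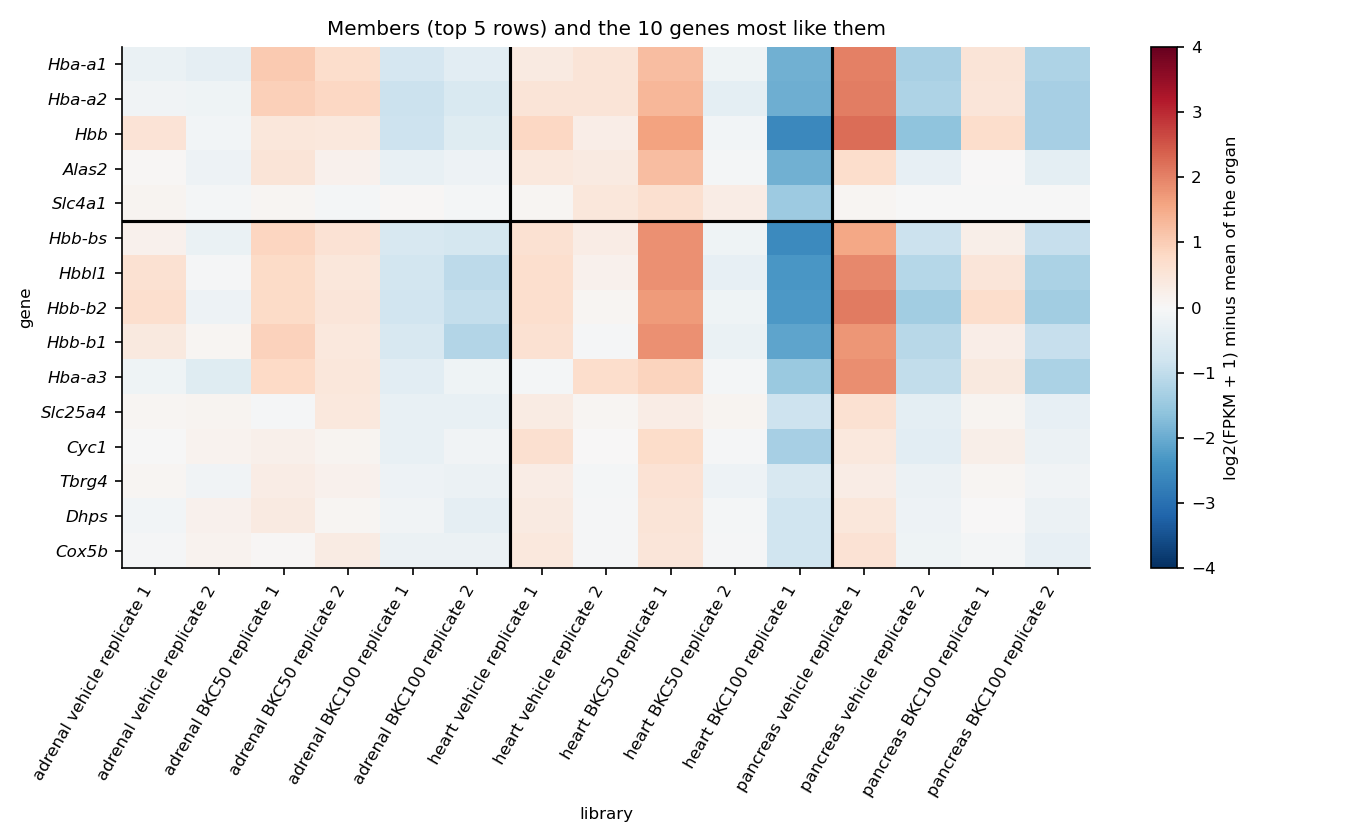
Log2(FPKM + 1) less the mean of the organ (colour) for the 5 members and the 10 genes most like them (rows) in 15 libraries (columns; lines part the organs). The adrenal BKC50, heart BKC50 replicate 1 and pancreas vehicle replicate 1 libraries are high and the heart BKC100 library low across the globin genes.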

How the data were processed

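RNA sequencing of 16 rat libraries in 8 groups of 2 was read from 1 table per organ. The authors' deposited values are taken as FPKM (fragments scaled by transcript length and library total): the files name no unit, the values are not whole, and this was inferred from them. HISAT2 2.1.0, StringTie 2.1.3b and edgeR 3.40.2 are named, without roles, in the submitters' processing notes; the genome build is not given in the sources used here. Every column matched 1 sample.

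Genes averaging 1 FPKM or more in an organ were fitted as log2(FPKM + 1) with limma 3.58.1 in R 4.3.3 (1 mean per group, trend and robust shrinkage), each organ apart, with Benjamini-Hochberg adjustment and a threshold of 0.05. No other tool was run. The pseudocount understates changes of low genes. The procedure was tested on simulated data. Promoters came from RefSeq's GRCr8 table. Ratios were taken within a library, the alpha genes summed were Hba-a1, Hba-a2 and Hba-a3, and the beta genes Hbb, Hbb-b1, Hbb-b2, Hbb-bs and Hbbl1.

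The members and lists were chosen with earlier results of these data known. Genes were named if members, if among up to 4 called genes of a list per comparison, or if among the 10 most correlated; others named (Ank1, Sptb, Gata1, Klf1, Rhag, Ahsp, Mb, Alas1 and embryonic globins, and markers of organs) were picked with their values known. Tried as alternatives were a pseudocount of 0.1, no filter, a replicate block, scaling by median ratios, scaling protein-coding genes to equal sums, the naming style as a term in heart, a minimum log2 change of 1 and each library left out. Sums of alpha and beta genes were added after seeing the data.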

Additional observations from a re-analysis of the deposited data

How the results depend on the processing

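Counts of genes called moved with the processing. With a pseudocount of 0.1 adrenal BKC50 against vehicle gave 0 calls and heart BKC100 against BKC50 60. Without a filter the adrenal and pancreas comparisons gave 0, members included, and heart BKC100 gave 565 against vehicle and 556 against BKC50. Median-ratio scaling gave 0, 311 and 37 in adrenal gland (BKC50 and BKC100 against vehicle, BKC100 against BKC50), 217 and 224 for heart BKC100 and 1 in pancreas; members called were 0 and 1 in the adrenal BKC100 comparisons. Coding genes at equal sums gave 2, 549 and 165, then 452 and 492; 0 members were called in adrenal BKC100 against vehicle and 1, Slc4a1, in heart BKC100 against BKC50. A minimum log2 change of 1 gave 768 genes and 0 members for adrenal BKC100 against vehicle. Naming style as a term gave 3545 and 3668 for heart BKC100, with 1 member, Slc4a1, in each.

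A fit with the replicate number as a block called 0, 526 and 72 genes in adrenal gland, 5327 and 5490 for heart BKC100 and 44 in pancreas. Under this replicate block 0 members were called in adrenal BKC100 against vehicle and 3 in each heart BKC100 comparison. No label says that the numbers pair samples. Deviations of same-numbered libraries had r = -0.15, -0.10 and 0.14 in adrenal gland, 0.74 between vehicle and BKC50 hearts, where the number coincides with naming style, and 0.42 in pancreas.

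Leaving out 1 library gave 1 to 183 genes and 0 to 2 members for adrenal BKC50 against vehicle, 261 to 2304 and 0 to 1 for BKC100 against vehicle, and 81 to 870 for BKC100 against BKC50. It gave 0 to 2 genes for heart BKC50 against vehicle, 266 to 347 and 0 to 4 members for heart BKC100 against vehicle, 105 to 579 and 0 to 4 against BKC50, and 0 to 115 in pancreas.

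Of 328 member values under alternatives, 265 kept direction and call, and 16 reversed. In adrenal BKC100 against vehicle, Hba-a1 was at 0.082 and Alas2 at 0.032 under median-ratio scaling, and at 0.046 and 0.0097 with coding genes at equal sums. The other reversals came with leaving out 1 library. Adrenal Hbb at 50 µg ran from -0.11 to 0.54. In heart BKC50, Hba-a1 ran from -0.61 to 0.80, Hba-a2 from -0.92 to 0.80, Hbb from -0.66 to 1.06 (-0.082 without vehicle replicate 2) and Alas2 from -0.46 to 0.85. In pancreas Hba-a1 ran from -2.38 to 0.94, Hba-a2 from -2.47 to 0.81 and Hbb from -2.54 to 1.31; without BKC100 replicate 2 they were at 0.15, 0.083 and 0.40. The cause of these shifts was not tested, and unknown depth limits the precision of low members, Slc4a1 above all.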
